A study of Mus musculus with 8 samples.

Results

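The genes examined were the receptor tyrosine kinase gene Erbb4, the related receptor gene Erbb3 and the neuregulin ligand genes Nrg1, Nrg2, Nrg3 and Nrg4, 6 of 21631 protein-coding genes. They were chosen by name, and Erbb4 was picked because an earlier look at the same peak lists had found fewer peaks there in sgNr2f2 libraries, so its difference between the groups is given as a description, with no test. The measurements are lists of ATAC-seq peaks, stretches of open chromatin that the transposase Tn5 reaches more often than the DNA around them. The neurons came from amygdalae of male mice of the strain C57BL/6J. All mice received an AAV in the amygdala, which was left to express for more than 2 weeks, and all were then restrained in a tube for 7 days, fear conditioned for 1 day and put through extinction for 3 days. The AAV carried a guide against the Rosa26 locus in the controls (sgRosa, n = 4 libraries) or against Nr2f2 (sgNr2f2, n = 4 libraries), which encodes the nuclear receptor COUP-TFII. There was no unstressed group. Neither the age of the mice nor the source of the nuclease is given in the sources used here. The study names 4 mice per group, and each library was taken as 1 mouse.

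Neuregulins are growth factors with an EGF-like domain, and most are made as membrane proteins that proteases release. ErbB4 binds all of them and acts as a kinase, whereas ErbB3 binds neuregulins but has a weak kinase and signals through a partner receptor. In the forebrain, Erbb4 is known as a gene of GABAergic interneurons, where its signalling shapes the synapses they receive and make.

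The 8 lists held between 53864 and 143405 peaks, and read depth is unknown because the lists hold no read totals. To compare libraries, the 53864 strongest peaks of each list by −log10 p were used, the length of the shortest list, and a peak was given to a gene if its summit lay in the gene or within 5 kb of it. Nr2f2 itself had 1 peak each in sgRosa 3, sgRosa 4 and sgNr2f2 4 and none in the other 5 libraries, which does not check the knockdown. Peaks summed over 8 pan-neuronal marker genes numbered 41 to 54 in sgRosa and 26 to 39 in sgNr2f2, and peaks summed over 8 astrocyte marker genes numbered 7 to 11 and 14 to 24. Neither sum overlapped between the groups, and all 16 of these genes had a peak in at least 1 library. Of 8095 single protein-coding genes with at least 8 peaks over the 8 lists, 0.506% did not overlap with fewer peaks in sgNr2f2, and 1.31% with more. The share of sums over 8 genes that separate the groups is not given here. The neuronal sum rested on 1 long gene, the synaptotagmin gene Syt1. Without it the sums were 19 to 32 in sgRosa and 16 to 32 in sgNr2f2, and of the 8 neuronal genes 2 had the lower mean in sgNr2f2, 4 the higher and 2 the same. Of the 8 astrocyte genes 1 was lower, 6 higher and 1 the same, and without Slc1a2 their sums met at 8 (3 to 8 and 8 to 18). Over the 8095 genes, 2965 were lower and 4390 higher in sgNr2f2. The sums of the other cell type lists overlapped between the groups. For glutamatergic neurons they were 6 to 11 in sgRosa and 5 to 19 in sgNr2f2. For vascular cells they were 8 to 18 and 11 to 26. For oligodendrocytes and precursors they were 3 to 12 and 4 to 12, and for microglia 3 to 11 and 4 to 11. The part of these marker values in the results below was not tested. Fewer cells with an open site and a less open site in each cell cannot be told apart in such lists.

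The sequences just upstream of the start sites are shown because no library had a peak within 1 kb of the start site of Erbb4, Nrg3 or Nrg4, and because COUP-TFII is known to bind repeats of the half-site AGGTCA. The RefSeq promoter table, built on GRCm38.p6 and so in mm10 coordinates, held 3 of the 6 genes. All 3 lie on the minus strand, and the 250 bases before the table's start site are written 5′ to 3′ on the gene's strand, with the half-site, here in its reverse complement TGACCT, in capitals. The Erbb4 bases, chr1:69108060-69108309, lie inside the outer limits of the gene, and a start site farther out may transcribe them. The outer ends of Nrg3, at 39473235, and Nrg4, at 55283654, also lie within their printed bases, so the same holds for the bases nearest their start sites.
Erbb4: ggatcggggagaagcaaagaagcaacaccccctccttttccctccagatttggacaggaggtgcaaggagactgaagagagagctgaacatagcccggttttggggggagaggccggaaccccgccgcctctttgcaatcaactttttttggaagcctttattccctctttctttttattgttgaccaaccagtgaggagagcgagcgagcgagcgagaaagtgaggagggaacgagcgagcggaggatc
Nrg3: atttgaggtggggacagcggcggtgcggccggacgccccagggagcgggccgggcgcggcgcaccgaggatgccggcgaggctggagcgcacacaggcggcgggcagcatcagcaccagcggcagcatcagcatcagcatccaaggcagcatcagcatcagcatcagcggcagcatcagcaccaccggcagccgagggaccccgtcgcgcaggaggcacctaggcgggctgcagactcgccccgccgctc
Nrg4: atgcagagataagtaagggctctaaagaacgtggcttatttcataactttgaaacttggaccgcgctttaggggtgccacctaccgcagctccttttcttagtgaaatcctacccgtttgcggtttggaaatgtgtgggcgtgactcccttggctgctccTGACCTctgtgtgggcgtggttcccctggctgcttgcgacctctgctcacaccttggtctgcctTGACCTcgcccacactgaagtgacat
The Erbb4 and Nrg3 (chr14:39473089-39473338) sequences held no half-site on either strand. The Nrg4 sequence (chr9:55283626-55283875) held 2, whose first bases lay at -90 and -26, counting the base before the start site as -1. The half-site at -26 lies inside the outer limits of the gene. Of 21045 promoters of the same length, 12.8% held at least 1. The GC share was 54.0% at Erbb4, 72.4% at Nrg3 and 53.2% at Nrg4, against a median of 55.6% over all promoters, and the Nrg3 sequence held 27 CG pairs against a median of 10. Closest to the Erbb4 start site was a peak 2.72 kb downstream of it in sgRosa 2. In sgNr2f2 2 a peak of the full list lay 3.61 kb upstream, and in the other 6 libraries the nearest peak was 12.7 to 37.2 kb away.

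Erbb4 (gene ID 13869) spans 1076.7 kb of chromosome 1, from 68031884 to 69108576 in mm10. It carried fewer peaks in the sgNr2f2 libraries than in the controls, the difference for which it was chosen. The sgRosa libraries 1 to 4 had 37, 35, 34 and 29 Erbb4 peaks, and the sgNr2f2 libraries 1 to 4 had 8, 26, 8 and 20. Every sgRosa value was above every sgNr2f2 value, with sgNr2f2 2 close to sgRosa 4 and sgNr2f2 1 and 3 far below. The means were 33.75 ± 3.4 for sgRosa and 15.5 ± 9.0 for sgNr2f2 (SD, n = 4 each), a difference of -18.25 peaks. Of 8095 protein-coding genes with at least 8 peaks over the 8 lists, 41 (0.506%) had groups that did not overlap with fewer peaks in sgNr2f2, and 106 (1.31%) with more. Erbb4 is 1 of those 41, and nothing is read from this, since the same contrast chose it.

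The separation of the groups at Erbb4 rests on how equal peaks are ordered. In sgNr2f2 2, 18530 peaks shared the −log10 p at which the list was cut and 28.7% of them could be kept. These were kept in a random order. Kept in order of position, which favours chromosome 1 and thus Erbb4, they gave 38, 35, 34 and 29 Erbb4 peaks in sgRosa and 8, 30, 9 and 20 in sgNr2f2, so that sgNr2f2 2 passed sgRosa 4 and the difference was -17.25. With each tied peak weighted by the share that could be kept, sgNr2f2 2 had 25.01 and the lowest sgRosa value was 29. The order by position was used first, and the random order and the weighting were chosen after its values were seen. In the full lists, Erbb4 had 42, 39, 39 and 66 peaks in sgRosa and 24, 47, 12 and 20 in sgNr2f2, and the groups overlapped. In the sgRosa 4 list, which is by far the longest, 37 of the 66 Erbb4 peaks lay past the length used, while in the sgNr2f2 4 list none did. The weakest Erbb4 peak inside that length had a −log10 p between 2.32 and 3.84, and the strongest one outside it a −log10 p between 2.33 and 3.28 in the 7 libraries that had one.

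**Figure D1:**
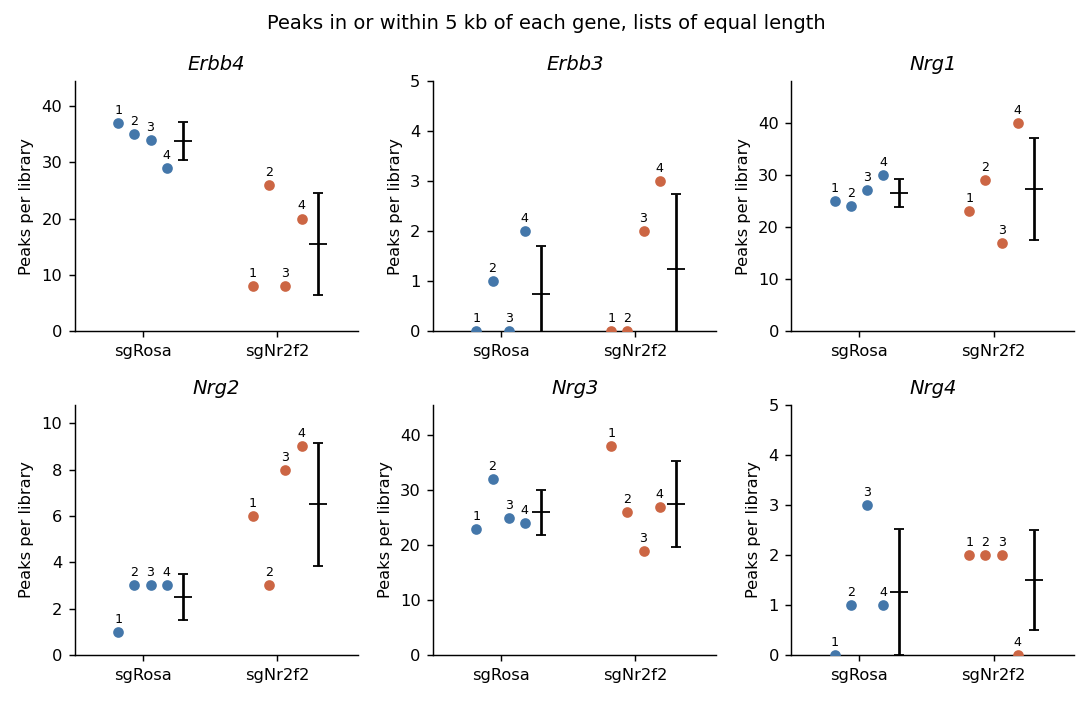
Peaks per library in or within 5 kb of each gene, in lists of 53864 peaks. Points are single libraries with their replicate number, and bars give the mean ± SD (n = 4 per group), drawn down to 0 at most. The sgRosa points of Erbb4 (29 to 37) sit above its sgNr2f2 points (8 to 26), and the points of the other 5 genes overlap.

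The difference in Erbb4 peaks varied along the gene and between libraries. Cut into 4 equal parts from its 5′ end, Erbb4 held 7.25, 6.25, 11.5 and 8.5 peaks per sgRosa library and 3.75, 4.5, 3.25 and 3.5 per sgNr2f2 library. Each part had the lower mean in sgNr2f2, by 1.75 to 8.25 peaks. In the first 2 parts, the lower means came from sgNr2f2 1 (0 and 0 peaks) and sgNr2f2 3 (1 and 3). There sgNr2f2 2 had 8 and 6 peaks and sgNr2f2 4 had 6 and 9, against 4 to 10 and 5 to 7 in sgRosa. In the third of the 4 parts, 21 of the 46 sgRosa peaks came from sgRosa 3 alone. The sgNr2f2 libraries did not share 1 pattern, since sgNr2f2 1 had no peak in the first 2 parts and sgNr2f2 4 had 15 of its 20 Erbb4 peaks there. The longest stretch of Erbb4 with no summit in any library was 33.1 kb, from 162.5 to 195.6 kb downstream of the gene's outer end.

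**Figure D2:**
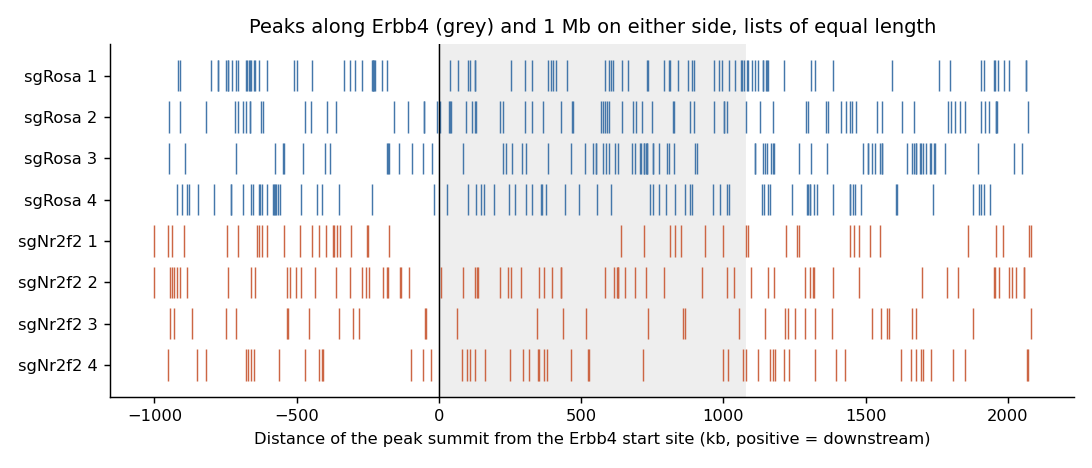
Summits of peaks along Erbb4 (grey band) and 1 Mb on either side, 1 row per library and 1 tick per peak, against the distance in kb from the start site (vertical line, positive is downstream). Ticks thin out over the gene in sgNr2f2 1 and sgNr2f2 3, with 8 peaks each, and the sgRosa rows stay filled with 29 to 37.

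Few Erbb4 peaks recurred. Overlapping peaks of the 8 lists merged into 179 regions in or near Erbb4, of which 165 (92.2%) came from 1 library, against 94.9% of 405563 regions in the genome. Of the 14 Erbb4 regions found in at least 2 libraries, 8 came from sgRosa libraries only, 6 from both groups and 0 from sgNr2f2 libraries only. Over the 20772 such regions of the genome, the shares were 19.7%, 59.9% and 20.4%. Nothing is read from the split at Erbb4, which follows from its lower number of sgNr2f2 peaks, and the full lists held 1 region of sgNr2f2 libraries only, chr1:68811708-68812075 in sgNr2f2 2 and 4. The most shared one, chr1:68979408-68980404, was found in 4 libraries, sgRosa 1, sgRosa 2, sgNr2f2 2 and sgNr2f2 4, at 128.6 kb downstream of the start site. Another, chr1:68096217-68096837, was found in sgRosa 2, sgRosa 4 and sgNr2f2 2. The remaining 12 were found in 2 libraries each.

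Erbb4 peaks were weak, as were the peaks of the lists as a whole. The authors' fold enrichment had a median of 2.87 over the 197 Erbb4 peaks, with a highest value of 4.07, and a median of 2.79 over all peaks. The Erbb4 peak with the highest −log10 p, 7.31, was chr1:68359896-68360094 in sgRosa 2, and the next, 6.67, was chr1:68642132-68642349 in sgNr2f2 4. In the full lists, 27 of 289 Erbb4 peaks (9.34%) had a q under 0.05, against 9.95% of all peaks. These 27 were 7, 2, 6 and 4 in sgRosa libraries 1 to 4 and 2 in each sgNr2f2 library, so that the groups met at 2. Exon and intron positions of the peaks were not analysed here. Inside Erbb4, the annotation places the lncRNA gene Gm51744, with 2 peaks over the 8 lists, and the pseudogene Gm25542, with 0.

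Fewer peaks in sgNr2f2 were also counted beside Erbb4. The 1 Mb on either side, beyond the 5 kb margins, held 60, 47, 52 and 52 peaks across sgRosa libraries 1 to 4 and 37, 46, 28 and 34 in sgNr2f2 libraries 1 to 4. The groups did not overlap, with sgNr2f2 2 again close to the lowest sgRosa library. The flank means were 52.75 ± 5.38 and 36.25 ± 7.50 (SD, n = 4 each), a difference of -16.5 peaks. The two-sided exact permutation test gave p = 0.0286, the smallest that 4 against 4 allows. The flanks adjoin a gene chosen for this contrast in the same libraries, so the test is not independent of that choice. The p was 0.114 with tied peaks in order of position (-14.0 peaks), 0.0571 in the full lists scaled to equal length and 0.0571 without any 1 of the 4 sgRosa libraries. Over the flanks of all 8095 genes, 1.22% passed this p with fewer peaks in sgNr2f2 and 5.26% with more. The left flank of Erbb4, at lower coordinates and past the end of the gene, differed by -11.5 peaks and the right flank by -5.00. Cut into bins of 200 kb, the left flank had the lower mean in sgNr2f2 in every bin. In the right flank the bin at 600 to 800 kb differed by -5.25, with means of 8.75 and 3.5. The other right bins differed by -0.75, 0.25, -0.5 and 1.25. Just past the left flank, at 1000 to 1200 kb, the direction turned, with means of 1 in sgRosa and 7.5 in sgNr2f2. Every left bin from 1200 to 2000 kb was again lower in sgNr2f2. Each flank holds parts or all of 2 other protein-coding genes, Lancl1 and Cps1 on the left and Ikzf2 and Spag16 on the right. Cps1, a urea cycle enzyme gene, had a mean of 4.50 peaks in sgRosa and 1.25 in sgNr2f2, and Lancl1 ran the other way, with 0.50 and 1.5. At Ikzf2, which encodes the zinc finger protein Helios, the means were 3.75 and 3.25, and at Spag16, a sperm flagellum gene, they were 18.5 and 15.5. These means are over each whole gene. Spag16 starts 718.3 kb from Erbb4 and spans 898.3 kb, so most of it lies beyond the flank, as does part of Lancl1.

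Per length, the group difference was larger in Erbb4 than beside it. Nothing is read from this, since Erbb4 was chosen for its difference and the flanks were not. Erbb4 held 31.06 peaks per Mb in sgRosa and 14.26 in sgNr2f2, a difference of -16.79, and its flanks held 26.38 and 18.12, a difference of -8.25. Gene over flank gave ratios of 1.135, 1.371, 1.203 and 1.026 in sgRosa libraries 1 to 4 and 0.398, 1.04, 0.526 and 1.08 in sgNr2f2 libraries 1 to 4. All 4 sgRosa libraries and sgNr2f2 2 and 4 had a denser gene than flank, and sgNr2f2 1 and 3 had a gene with fewer peaks per Mb than its flank. The ratios overlapped between the groups, with means of 1.184 ± 0.144 and 0.762 ± 0.351 (SD, n = 4 each). Over all 8 libraries, Erbb4 exceeded its flanks by 0.41 ± 6.44 peaks per Mb (SD, n = 8), far less than the spread, and the sign turned without sgRosa 1 (-0.109), sgRosa 2 (-0.775) or sgRosa 3 (-0.286).

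**Figure D3:**
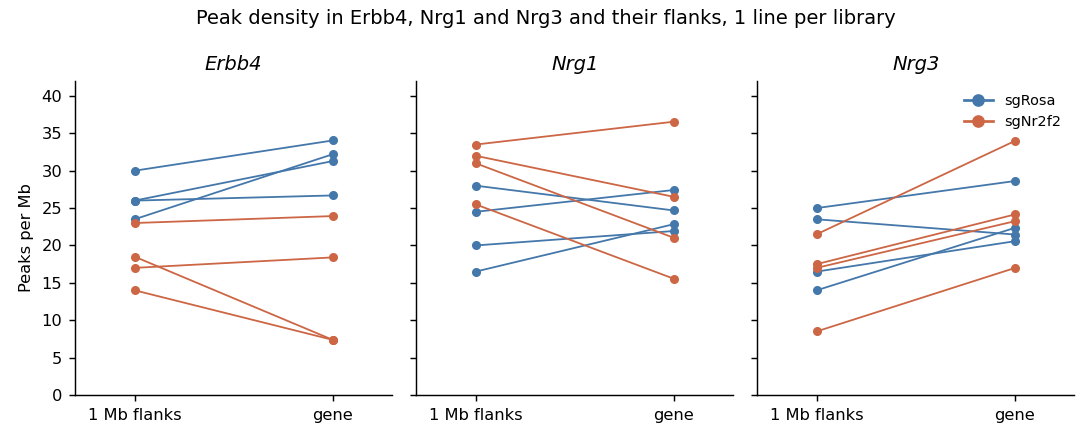
Peaks per Mb in the 1 Mb flanks and in the gene, for Erbb4, Nrg1 and Nrg3, with 1 line per library (sgRosa blue, sgNr2f2 orange). The lines of sgNr2f2 1 and sgNr2f2 3 fall to 7.36 peaks per Mb in Erbb4, and 7 of 8 lines rise in Nrg3.

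The libraries also differed in where their peaks lay in the genome. Windows of 1 Mb in which no protein-coding gene has its lower end, 298 gene-poor windows in all, held 26.6, 23.2, 19.4 and 22.4 peaks per Mb in sgRosa libraries 1 to 4 and 17.5, 21.2, 13.1 and 17.5 in sgNr2f2 libraries 1 to 4. The means were 22.9 ± 2.95 and 17.3 ± 3.30 (SD, n = 4 each), and the groups overlapped. In the 276 windows with at least 20 such genes, the means ran the other way, 20.75 ± 2.81 in sgRosa and 25.2 ± 2.57 in sgNr2f2. Erbb4 lies in a gene-poor stretch. Its density divided by that of the gene-poor windows was 1.28, 1.39, 1.61 and 1.19 in sgRosa libraries 1 to 4. In sgNr2f2 libraries 1 to 4 it was 0.420, 1.13, 0.562 and 1.05. These ratios did not overlap between the groups, but 1.13 in sgNr2f2 2 was close to 1.19 in sgRosa 4. They are given for the random order of ties only. In order of position, sgNr2f2 2 had 30 Erbb4 peaks and sgRosa 4 had 29. Nothing is read from this separation, since Erbb4 was chosen for fewer peaks in sgNr2f2. The share of all genes with such a separation is not given here. The part of this shift between gene-poor and gene-dense windows in the Erbb4 values was not tested further. Chromosome 1 took 6.30% to 9.93% of the peaks of a sgRosa library and 5.39% to 8.63% of those of a sgNr2f2 library. Erbb4 held 0.692% to 1.00% of the chromosome 1 peaks in sgRosa and 0.194% to 0.688% in sgNr2f2.

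**Figure D4:**
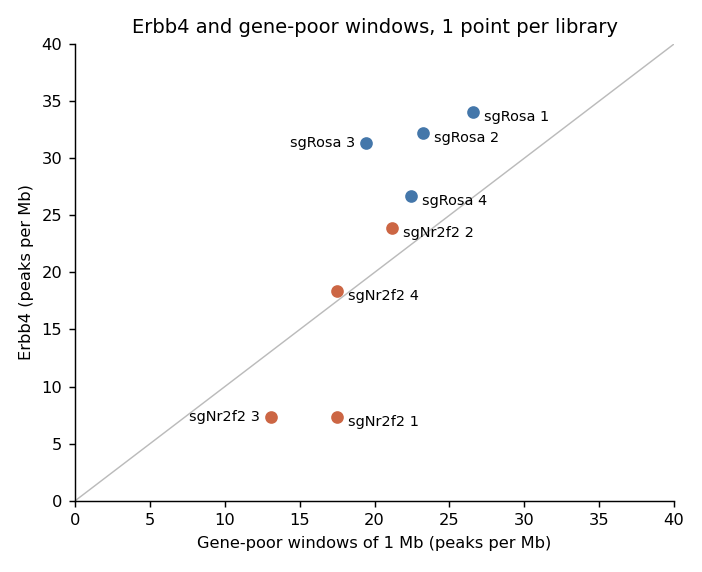
Peaks per Mb in Erbb4 against peaks per Mb in the 298 gene-poor windows, 1 point per library (sgRosa blue, sgNr2f2 orange), with the line of equal density. The 4 sgRosa points lie above the line, sgNr2f2 2 and sgNr2f2 4 lie just above it, and sgNr2f2 1 and sgNr2f2 3 lie below it.

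Erbb4, Nrg1 and Nrg3 are among 227 protein-coding genes of at least 500 kb. The other 224 together held 4306 ± 248 peaks per sgRosa library and 4090 ± 295 per sgNr2f2 library (SD, n = 4 each), a difference of -216 with an exact permutation p of 0.314. It ranged from -356.7 without sgNr2f2 2 (exact permutation p = 0.0857) to -123 without sgRosa 1, with -323.7 without sgRosa 3 and -132 without sgNr2f2 3. Per Mb, 123 of all 227 had the lower mean in sgNr2f2 and 98 the higher. The 227 include genes with almost no peaks, such as Dmd (0.417 per Mb over all libraries), Tenm1 (0.686) and Aff2 (0). These stay in the split and in the ranks that follow. Erbb4 had rank 5 from the lowest among the 227 for the group difference per Mb, rank 26 for that of its flanks and rank 126 from the top for its density over all libraries. Of 220 long genes with enough peaks, 8 (3.64%) had groups that did not overlap with fewer peaks in sgNr2f2, Erbb4 among them, and 3 (1.36%) with more. Nothing is read from the rank of Erbb4 for the group difference or from its place among the 8, since the same contrast chose it.

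**Figure D5:**
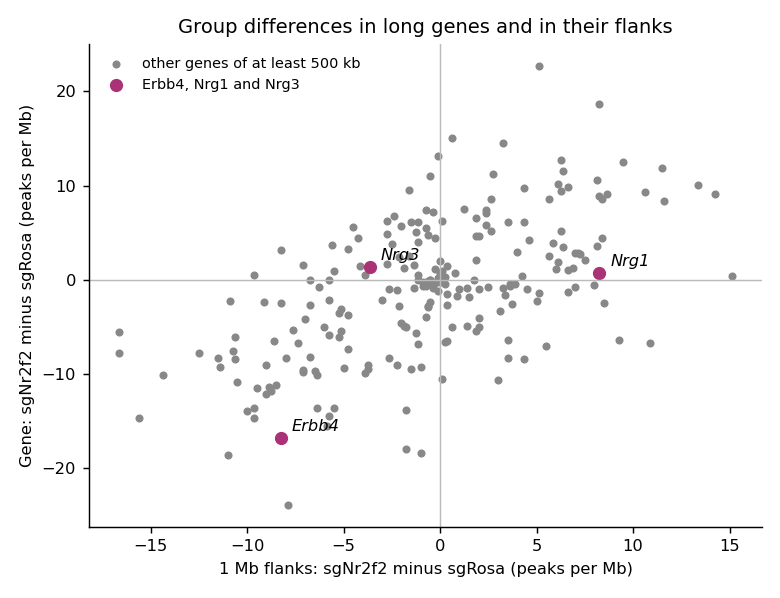
Group difference (sgNr2f2 minus sgRosa) in peaks per Mb in each of 227 genes of at least 500 kb, against the same difference in its 1 Mb flanks, 1 point per gene. Erbb4 lies at -8.25 in its flanks and -16.79 in the gene, and Nrg1 and Nrg3 lie near 0 on the vertical axis.

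Among the 1027 other genes with at least 40 peaks over the 8 lists, the 5 whose peak numbers were most like those of Erbb4 over the 8 libraries were Cntn5 (Pearson r = 0.920), Slc22a22 (r = 0.890), Lrrc4c (r = 0.890), Agbl1 (r = 0.875) and Astn1 (r = 0.850). Each r is over 8 libraries that share the list length and the group difference, and is given as a description. Cntn5, a neuronal adhesion gene of the contactin family, had 32, 31, 39 and 32 peaks across sgRosa libraries 1 to 4 and 18, 27, 16 and 21 in sgNr2f2 libraries 1 to 4. Its sgRosa values were all above its sgNr2f2 values, as in 0.506% of the 8095 genes, and sgNr2f2 2 was the highest of its group. Nothing is read from either, since Cntn5 was picked for its likeness to Erbb4. Lrrc4c, which encodes a netrin-G ligand of synapses, had 42, 32, 34 and 29 peaks in sgRosa and 23, 31, 21 and 30 in sgNr2f2, and its groups overlapped. Of the other 3, Slc22a22 encodes a membrane transporter, Agbl1 a carboxypeptidase and Astn1 a neuronal protein of migration along glia. Nrg1 stood at rank 276 of the 1027 genes (r = 0.245) and Nrg3 at rank 592 (r = -0.170).

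Erbb3 (gene ID 13867), on chromosome 10 from 128567523 to 128589635, spans 22.1 kb. It had 0, 1, 0 and 2 peaks across sgRosa libraries 1 to 4 and 0, 0, 2 and 3 in sgNr2f2 libraries 1 to 4. The groups overlapped, and the means of 0.75 ± 0.957 and 1.25 ± 1.5 (SD, n = 4 each) differed by less than the spread (two-sided exact permutation p = 0.83). None of the 8 Erbb3 peaks was found in a second library. The strongest, chr10:128569649-128569887 in sgRosa 4, had a −log10 p of 5.25.

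Of the 5 genes other than Erbb4, which the choice did not rest on, all 5 had at least 8 peaks over the 8 lists and were tested, and 0 had an exact permutation p under 0.05, against 1.82% of the 8095 genes in either direction. All 5 had the higher mean in sgNr2f2, by 0.25 to 4.00 peaks. Over the 8095 genes the median difference was 0.25 peaks, with 2965 genes lower and 4390 higher in sgNr2f2. With the adjustment of Benjamini and Hochberg over the 8095 genes, the exact permutation test gave an adjusted p of 1 for all 5, and 0 genes of the 8095 had one under 0.05.

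Nrg1 (gene ID 211323), the neuregulin best known in synapses and myelination, spans 1084.2 kb of chromosome 8, from 31807452 to 32891609. The sgRosa libraries 1 to 4 had 25, 24, 27 and 30 Nrg1 peaks, and the sgNr2f2 libraries 1 to 4 had 23, 29, 17 and 40. The sgNr2f2 libraries held both the lowest and the highest value. The means were 26.5 ± 2.65 and 27.25 ± 9.81 (SD, n = 4 each; exact permutation p = 0.943), and the mean difference became -3.50 without sgNr2f2 4. Cut into 4 equal parts from its lower coordinate, Nrg1 held between 5.75 and 8.75 peaks per sgRosa library in a part and between 6.00 and 8.50 per sgNr2f2 library.

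Around Nrg1 the flanks had more peaks in sgNr2f2, 61.0 ± 6.98 against 44.5 ± 10.1 in sgRosa (SD, n = 4 each), the opposite of the Erbb4 flanks. This contrast was not among those tested. By library the Nrg1 flanks held 33, 40, 56 and 49 peaks in sgRosa and 62, 64, 51 and 67 in sgNr2f2, so that the groups overlapped through sgRosa 3 and sgNr2f2 3. Nrg1 itself had more peaks per Mb than its flanks in 4 of 8 libraries, with a mean gene minus flank density of -1.81 ± 6.28 per Mb (SD, n = 8; exact sign-flip permutation p = 0.422). Of 207 regions in or near Nrg1, 199 (96.1%) came from 1 library and none from more than 2. The strongest Nrg1 peak was chr8:32679262-32679509 in sgRosa 1, with a −log10 p of 8.10.

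Nrg2 (gene ID 100042150), a ligand gene of chromosome 18 that lies between 36014581 and 36197532, spans 183.0 kb. It had 1, 3, 3 and 3 peaks across sgRosa libraries 1 to 4 and 6, 3, 8 and 9 in sgNr2f2 libraries 1 to 4. Only sgNr2f2 2 fell in the sgRosa range. The Nrg2 means of 2.50 ± 1.00 and 6.50 ± 2.65 (SD, n = 4 each) gave the lowest p of the 5 genes, an exact permutation p of 0.114. Without sgNr2f2 2 the Nrg2 difference was 5.17 peaks with an exact permutation p of 0.0286 (adjusted p = 0.970), and limma gave p = 0.0452, or 0.048 with the replicate block (adjusted p = 0.772 and 0.816). Its flanks had 35.0 ± 13.7 peaks in sgRosa and 45.75 ± 15.9 in sgNr2f2. Of 33 Nrg2 regions, 3 were found in 2 libraries and 0 in more.

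Nrg3 (gene ID 18183), a neuregulin gene of the nervous system whose protein binds ErbB4, spans 1108.1 kb of chromosome 14, from 38365102 to 39473235. The sgRosa libraries 1 to 4 had 23, 32, 25 and 24 Nrg3 peaks, and the sgNr2f2 libraries 1 to 4 had 38, 26, 19 and 27. The groups overlapped, with means of 26.0 ± 4.08 and 27.5 ± 7.85 (SD, n = 4 each; exact permutation p = 0.771). Nrg3 was denser than its flanks in 7 of 8 libraries, all but sgRosa 4. The mean excess was 5.99 ± 4.28 peaks per Mb (SD, n = 8), with an exact sign-flip permutation p of 0.0156, where the smallest possible is 0.00781. Adjusted over the 8095 genes this permutation p was 0.463, and 0 genes passed. Of 203 Nrg3 regions, 11 were found in 2 libraries, of which 5 came from both groups, 4 from sgNr2f2 only and 2 from sgRosa only. The strongest Nrg3 peak was chr14:39037296-39037446 in sgNr2f2 4, with a −log10 p of 8.12. The closest peaks to the Nrg3 start site lay 2.08 kb upstream, in the full list of sgNr2f2 3, and 4.44 kb upstream in sgRosa 2. Both lie past the outer end of the gene, near the lncRNA gene LOC432842.

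Nrg4 (gene ID 83961), a ligand specific to ErbB4 and best known in fat and liver, spans 63.4 kb of chromosome 9, from 55220222 to 55283654. It had 0, 1, 3 and 1 peaks across sgRosa libraries 1 to 4 and 2, 2, 2 and 0 in sgNr2f2 libraries 1 to 4. The means were 1.25 ± 1.26 and 1.5 ± 1.0 (SD, n = 4 each; exact permutation p = 1), and the groups overlapped. None of its 11 peaks was found in a second library. The strongest Nrg4 peak, chr9:55287376-55287561 in sgRosa 4, with a −log10 p of 6.01, lay 3.85 kb upstream of the start site whose promoter is printed above. In sgNr2f2 2 a peak lay 1.85 kb upstream of it.

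Set per length, the 6 genes did not differ beyond their spread. Over the 8 libraries, peak density was 31.1 ± 37.2 per Mb at Erbb3, 24.6 ± 6.09 at Nrg1, 23.9 ± 5.23 at Nrg3, 23.3 ± 14.7 at Nrg2, 22.7 ± 10.7 at Erbb4 and 18.7 ± 14.4 at Nrg4 (SD, n = 8 each). Each neighbour in that order differed from the next by less than the larger SD of the pair. The median of the 227 long genes was 23.2 per Mb.

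The rest of the pathway showed few differences. Of 9 other ErbB receptor and EGF family ligand genes, 5 had enough peaks to be tested and 0 passed an exact permutation p of 0.05, with a median difference over the 9 of -0.50 peaks. Egf, the ligand of the EGF receptor, had 7, 7, 3 and 4 peaks in sgRosa and 4, 2, 2 and 0 in sgNr2f2, and Ereg, the epiregulin gene, had 3, 3, 4 and 0 against 0, 1, 0 and 0. Erbb2, the partner receptor of ErbB3 and ErbB4, had 1, 1, 0 and 1 peaks against 0, 0, 0 and 1, too few to be tested. The groups of Egf and of Ereg overlapped (exact permutation p = 0.0857 for Egf and 0.143 for Ereg).

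Among 12 genes of neuregulin shedding, 8 were tested, and 1 passed with more peaks in sgNr2f2 and 0 with fewer. It was Adam17, a metalloprotease that releases neuregulins, with 0, 1, 1 and 1 peaks in sgRosa and 2, 2, 2 and 3 in sgNr2f2 (exact permutation p = 0.0286, adjusted p = 1). Psen2, a catalytic subunit of gamma-secretase, had no peak in any sgRosa library and 0, 2, 5 and 2 peaks in sgNr2f2 (exact permutation p = 0.143). Nrd1, which encodes nardilysin, an activator of that shedding, had 0, 0, 0 and 3 peaks in sgRosa and 1, 5, 1 and 2 in sgNr2f2 (exact permutation p = 0.371). The median difference over the 12 genes was 0.625 peaks.

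Among 30 genes of ErbB adaptors, regulators and downstream kinases, 22 were tested, and 1 passed with more peaks in sgNr2f2 and 0 with fewer. It was Pik3r1, a regulatory subunit of PI3 kinase, with 2, 1, 0 and 2 peaks in sgRosa and 5, 3, 5 and 4 in sgNr2f2 (exact permutation p = 0.0286, adjusted p = 1). The median difference over the 30 genes was 0.50 peaks. These 2 calls of 35 tested pathway genes stand beside the 1.82% of all genes.

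Of 27 marker genes of GABAergic neurons and interneurons, the cells in which Erbb4 is best known, 10 were tested and 0 passed in either direction. Their summed peaks ranged from 43 to 84 in sgRosa and from 51 to 71 in sgNr2f2, with means of 65.5 ± 17.0 and 61.75 ± 8.69 (SD, n = 4 each), and the ranges overlapped. The part of interneuron number in the Erbb4 values was not tested. Htr3a, a serotonin receptor gene of interneurons, had no peak in any sgRosa library and 0, 1, 1 and 1 in sgNr2f2, too few to be tested. The defining interneuron gene Vip had no peak in any library. Gad2, an enzyme of GABA synthesis, had 5, 1, 2 and 2 peaks in sgRosa and 3, 2, 5 and 1 in sgNr2f2.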

How the data were processed

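The deposited narrowPeak lists, 1 per library in mm10, give the authors' integer score, the fold enrichment as a ratio over background, and the peak caller's −log10 p and −log10 q. Peaks were called per library. The submitters' processing notes list MACS2 2.2.9.1, HOMER 4.10 and DiffBind 3.10.0, with Picard, fastp 0.23.2, MultiQC 1.11 and FastQC 0.11.9. What is not given in the sources used here is the aligner, the duplicate treatment, the Tn5 shift and the calling options. Sample titles gave the group and the replicate number.

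Peaks of the autosomes and X were used. Where 1 interval had several summits, the strongest stood for it, so that 3499 lines were dropped. Each list was cut to its 53864 strongest peaks by −log10 p. Ties at the cut were kept in a random order with a fixed seed, because order of position favours the first chromosomes; this was chosen after values were seen. A summit within 5 kb of a gene in the RefSeq table of GRCm38.p6 counted. Two-sided exact permutation tests over 70 assignments compared the groups, and exact sign flips over 8 libraries compared gene and flank density, with Benjamini-Hochberg adjustment over the 8095 protein-coding genes with at least 8 peaks. Overlap of regions needed 1 bp. limma 3.58.1 (R 4.3.3), on log2 of the number of peaks plus 0.5, was an alternative, as were full and half-length lists, order by fold, a q under 0.05, other margins and flanks, other filters and each library left out. Scripts ran in Python 3.11.15 with scipy 1.17.1, pandas 2.3.3, matplotlib 3.10.9 and numpy 2.4.6. The calculations were tested on simulated data.

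The genes and lists were chosen with earlier results of these data known. Text names all 6 genes; from other lists, genes whose groups do not overlap and up to 4 more with the largest difference in libraries with a peak; the 5 genes most like Erbb4; and regions found in at least 2 libraries. Egf, Gad2, Syt1, Slc1a2, the flank genes of Erbb4 and Vip were named after their values were seen. The count of pathway genes tested leaves out the interneuron markers.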

Additional observations from a re-analysis of the deposited data

Results flagged for a closer look

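Dixon's test was applied to 38 groups of 4 libraries, and it marked 4 single libraries as far from the rest of their group. The usual rate, by which chance alone marks about 1 in 20, is for continuous values and need not hold for small tied counts. In the full lists, sgRosa 4 had 66 Erbb4 peaks where the other sgRosa libraries had 39, 39 and 42, and 76 Nrg1 peaks where the others had 30, 31 and 31. This library also has the longest list, 143405 peaks, and in the lists of equal length its 29 Erbb4 and 30 Nrg1 peaks were not marked. In the lists of equal length, sgRosa 1 had 1 Nrg2 peak where the others had 3 each, and sgNr2f2 4 had 0 Nrg4 peaks where the others had 2 each. Since the others were tied in both groups, any different value would have been marked.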

How the results depend on the processing

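Erbb4 kept fewer peaks in sgNr2f2 under every alternative run, by -15.75 to -21.75 peaks with 1 library left out, and by -2.75 among peaks with q under 0.05. Nothing is read from the kept direction, since the same contrast chose Erbb4 and the alternatives use the same lists. The Erbb4 groups overlapped in the full lists and with tied peaks in order of position. The Erbb4 flank difference kept its direction and lost p under 0.05 in full lists (-14.95), ordered by fold enrichment (-16.0), with q under 0.05 (-2.25), with flanks of 500 kb (-12.5) or 2000 kb (-10.88, both scaled to 1 Mb and chosen after the data were seen) and with ties by position (-14.0), and it ranged from -19.75 to -13.75 with 1 library left out. Erbb4 density minus flank density ranged from -0.775 to 2.06 with 1 library left out. The differences of the other genes changed sign in places. Half-length lists, times 2, gave -1 for Erbb3, -0.50 for Nrg4 and -7.30 per Mb for Erbb3 gene minus flank. A q under 0.05 gave -0.25 for Erbb3 and -1.75 for Nrg1. A margin of 50 kb gave -1 for Nrg1 and -2.25 for Nrg4. Full lists gave -0.656 for Nrg3, and flanks of 500 kb gave 0.812 per Mb for Nrg1 gene minus flank. With 1 library left out the ranges were -0.0833 to 0.917 for Erbb3, -3.50 to 4.17 for Nrg1, -2 to 4.33 for Nrg3, -0.167 to 0.833 for Nrg4 and -3.13 to 1.1 per Mb for Nrg4 gene minus flank. None of these had an adjusted p under 0.05, and the cause was not tested.

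The numbers of genes with p under 0.05, fewer and more in sgNr2f2, were 108 and 280 in full lists, 19 and 32 in half-length lists, 0 and 1 with q under 0.05, 90 and 332 with a margin of 50 kb, 13 and 22 with at least 40 peaks, and 157 and 366 with limma. With at least 1 peak 68 had fewer. With 1 library left out they were 32 to 64 and 69 to 179. The adjusted count was 0 each time. The difference in other long genes ranged from -356.7 to -123 with 1 library left out.

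The replicate numbers were not taken to pair the samples, since the titles do not say that they mark a shared litter, batch or day. Libraries with the same number deviated together with correlations of 0.0186, 0.00246, 0.00836 and -0.00177. These values cannot decide whether the samples were paired, because few peaks recur between libraries. With the replicate block, limma called 145 genes with fewer and 334 with more, and Nrg1 changed by -0.0232 on the log2 scale with and without the block. The block left the Erbb4 flank difference at -16.5 with an exact sign-flip permutation p of 0.125, the smallest that 4 pairs allow. Depth is unknown, so a site without a peak was not detected rather than closed, and few peaks recur between libraries.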
